A study of Mus musculus with 15 samples.

Results

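The Sox genes encode transcription factors that share the HMG box, a DNA-binding domain first known from the sex-determining factor Sry. 10 of them were followed here among the 53801 genes counted in adult neural stem cells (aNSCs): Sox1, Sox2, Sox3, Sox4, Sox5, Sox6, Sox7, Sox9, Sox11 and Sox21, chosen by name, with the oligodendrocyte factors Sox8 and Sox10 left out. All 10 passed the filter on low counts in each comparison, Sox7 only through the libraries given 4-OHT. They fall into the B1 group (Sox1, Sox2 and Sox3, which keep neural progenitors from differentiating), the B2 group (Sox21, which counteracts B1 factors), the C group (Sox4 and Sox11, known from young neurons), the D group (Sox5 and Sox6, which carry no activation domain and modify the action of other Sox factors), the E group (Sox9, a factor of neural stem cells and glia) and the F group (Sox7, best known from endothelium). In the subventricular zone, Sox2 marks the stem cells and their progeny, and the balance between Sox groups accompanies the steps from stem cell to neuron or glia.

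The aNSCs had been taken at 2 months from the subventricular zone of C57BL6/J-129sv mice, were grown in suspension with growth factors and profiled by bulk RNA-seq in 15 libraries. Every mouse carried Rosa26-CreERT2, a Cre recombinase expressed from a broadly active locus and switched on by 4-hydroxytamoxifen (4-OHT). 5 libraries came from untreated Trrap Fl/+ cells (mice 19, 24, 26, 35 and 36), 5 from Trrap Fl/+ cells given 4-OHT (the same mice), and 5 from Trrap Fl/Fl cells given 4-OHT (mice 27, 28, 29, 37 and 39). Trrap is a large scaffold protein of histone acetyltransferase complexes. The Fl/Fl and Fl/+ cells given 4-OHT were compared for the loss of Trrap with the drug and Cre held alike, and the treated and untreated Fl/+ cells for 4-OHT itself. No untreated Fl/Fl library was analysed here, so deletion and the identity of the mice cannot be told apart, and in Fl/+ cells 4-OHT activates Cre on the 1 floxed Trrap copy as well, so that drug, Cre and loss of a copy cannot be told apart.

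Between 25720034 and 32187097 reads were counted a library, over 20978 to 22088 genes with at least 1 count. Levels are given as CPM, counts per 1000000 on library sizes scaled by TMM over the 15 libraries, with the SD over 5 libraries. Trrap itself held 193, 214, 184, 179 and 181 CPM in untreated Fl/+ cells, 138, 204, 171, 165 and 142 CPM in Fl/+ cells with 4-OHT and 92.9, 115, 142, 89.2 and 82.8 CPM in Fl/Fl cells, in the order of the mice above. The Fl/Fl library 29 lay within the range of the treated Fl/+ libraries, and the other 4 lay below it. Trrap fell by 0.64 on the log2 scale (SE 0.16) between the treated groups (adjusted p = 0.0115, edgeR quasi-likelihood test with Benjamini-Hochberg adjustment over all genes, used throughout), and by 0.58 (SE 0.161, adjusted p = 0.0243) without the library Fl/Fl 39. The library Fl/Fl 39 is labelled female but carried 213 CPM of 4 Y-linked genes and 0.313 CPM of Xist, as male libraries do. The Fl/+ mouse 36, labelled male and with Y-linked counts, showed 74.7 CPM of Xist after 4-OHT and 5.89 CPM before. Markers of neural stem cells were present in every library (8 of 8 tested, 5443 to 9940 CPM summed over the list). Astrocyte markers summed to 5630 to 9650 CPM and oligodendrocyte lineage markers to 3344 to 5391 CPM, so these lists were present in every library as well. Microglia markers summed to at most 2.01 CPM and those of mural cells and fibroblasts to at most 19.7 CPM. Bulk libraries cannot tell fewer cells of a type from less RNA per cell.

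The HMG box gives the family its name, and 10 codons of it are shown to make visible how alike the 10 genes are where reads had to be assigned to 1 of them. The sequences were read from GENCODE M21 transcripts (GRCm38), 5′ to 3′, and capitals mark the bases that differ from Sox2.
Sox2: aggcccatgaacgccttcatggtatggtcc
Sox1: CggcccatgaacgccttcatggtGtggtcc
Sox3: CgAcccatgaacgcGttcatggtGtggtcc
Sox21: CggcccatgaacgccttcatggtGtggtcG
Sox4: CggcccatgaacgccttTatggtGtggtcG
Sox11: CggcccatgaacgccttcatggtGtggtcc
Sox5: CgTccAatgaaTgccttcatggtGtggGcG
Sox6: CgAccAatgaaTgcGttcatggtTtggGcA
Sox9: CgAcccatgaacgccttcatggtGtggGcG
Sox7: CggcccatgaaTgccttcatggtGtggGcc
Over these 30 bases, Sox1 and Sox11 each differed from Sox2 at 2 positions, the fewest, and Sox6 at 8, the most. Sox1 and Sox11 were identical to each other in this stretch. The deposited counts used uniquely aligned reads only.

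The members lay on separate chromosomes except Sox7 and Sox21, which share chromosome 14 (GRCm38, GENCODE M21). Sox2 (ENSMUSG00000074637) occupies chr3:34650405-34652461 on the plus strand, Sox21 (ENSMUSG00000061517) chr14:118233232-118237030 on the minus strand, Sox11 (ENSMUSG00000063632) chr12:27334264-27342574 on the minus strand, and Sox5 (ENSMUSG00000041540) chr6:143828425-144781977 on the minus strand. Sox1 (ENSMUSG00000096014) occupies chr8:12395295-12400126 on the plus strand and Sox7 (ENSMUSG00000063060) chr14:63943673-63950732 on the plus strand. Noncoding genes lie over several of them. An opposite-strand gene, Gm26735, covers 54.6% of the Sox4 exon bases at 75 to 152 counts a library, and another, Gm4675, covers 18.8% of those of Sox21 at 35 to 131 counts, while the Sox members there held far more reads. The counting used strand, so these partners are counted apart. Sox1ot and Sox2ot span Sox1 and Sox2 on the same strand with 0 bases of exon in common, and their levels are given with those genes.

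Sox2 and Sox4 were the most abundant members and Sox7 the least in length-scaled levels, CPM per kilobase of exon (counting the union of annotated exons, which lowers the values of Sox5 and Sox6 with their many isoforms). In untreated Fl/+ cells, Sox2 stood at 194 ± 50.6 CPM per kilobase and Sox4 at 149 ± 27.6. They were followed by Sox3 at 75 ± 17.7, Sox9 at 57.2 ± 14.1, Sox21 at 33.8 ± 8.07 and Sox1 at 20.7 ± 5.61. Sox11 stood at 15.1 ± 2.07, Sox6 at 11.9 ± 1.3, Sox5 at 5.78 ± 0.681 and Sox7 at 0.0325 ± 0.035. In this order, neighbours whose ranges over the 5 libraries did not overlap were Sox4 and Sox3, Sox6 and Sox5, and Sox5 and Sox7; the ranges of the other neighbours overlapped. Sox2 was above Sox4 in 5 of 5 libraries of both Fl/+ groups. In Fl/Fl cells Sox4 (119 ± 15.3 CPM per kilobase) and Sox2 (114 ± 15.4) changed places, with Sox4 the higher in 4 of 5 libraries and overlapping ranges.

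**Figure D1:**
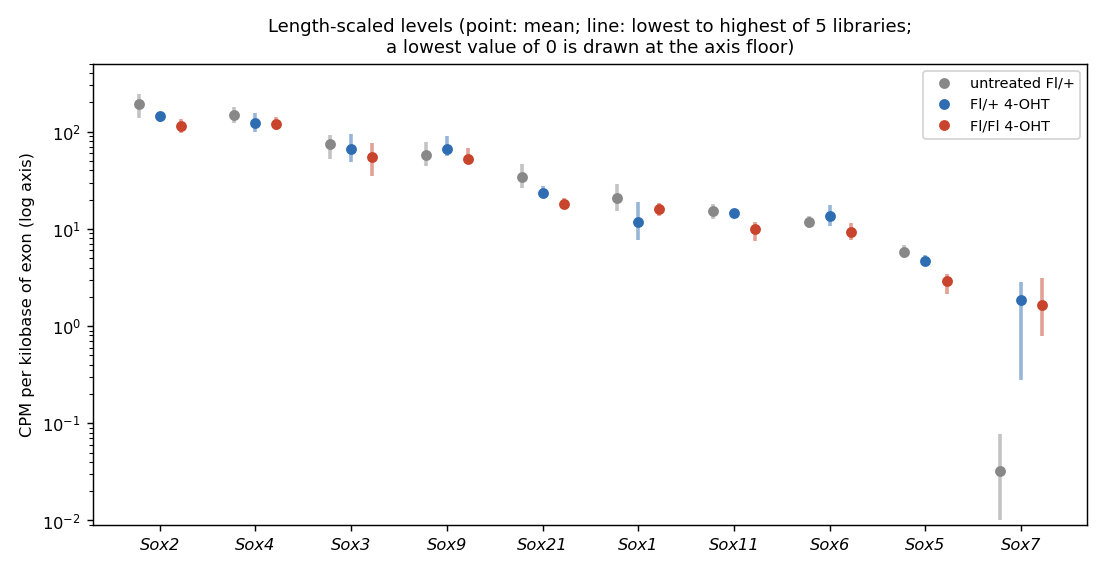
CPM per kilobase of exon on a log axis for each of the 10 Sox genes, ordered by level in untreated Fl/+ cells. Points are group means and lines run from the lowest to the highest of 5 libraries. Sox7 rises from 0.0325 in untreated cells to 1.84 and 1.65 in the groups given 4-OHT, a wider step than any other member shows.

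After Trrap deletion, 5 of the 10 genes were lower and 0 were higher, against 31.7% of 15036 tested genes called in either direction and 15.0% called lower. The lower genes were Sox5, Sox11, Sox6, Sox21 and Sox2. The median log2 fold change of the 10 was -0.33, beside 0.02 over all genes tested. After 4-OHT in Fl/+ cells, 2 of the 10 were called, Sox7 higher and Sox21 lower, against 13.8% of 14821 tested genes; leaving aside Sox7, tested only because it was high with 4-OHT, 1 of 9 was called. With the mouse as a block, which the design allows because each Fl/+ mouse gave a treated and an untreated culture, 6 of the 10 were called, adding Sox1, Sox2, Sox4 and Sox5, against 25.7% of the genes, or 5 of 9 with Sox7 left aside. Without both cultures of mouse 36, the block fit called 5 (Sox4, at adjusted p = 0.0578, was lost), against 24% of the genes, or 4 of 9 with Sox7 left aside. The groups did not overlap for 2 members after deletion (22.6% of all genes) and for 1, Sox7, after 4-OHT (12.0%).

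**Figure D2:**
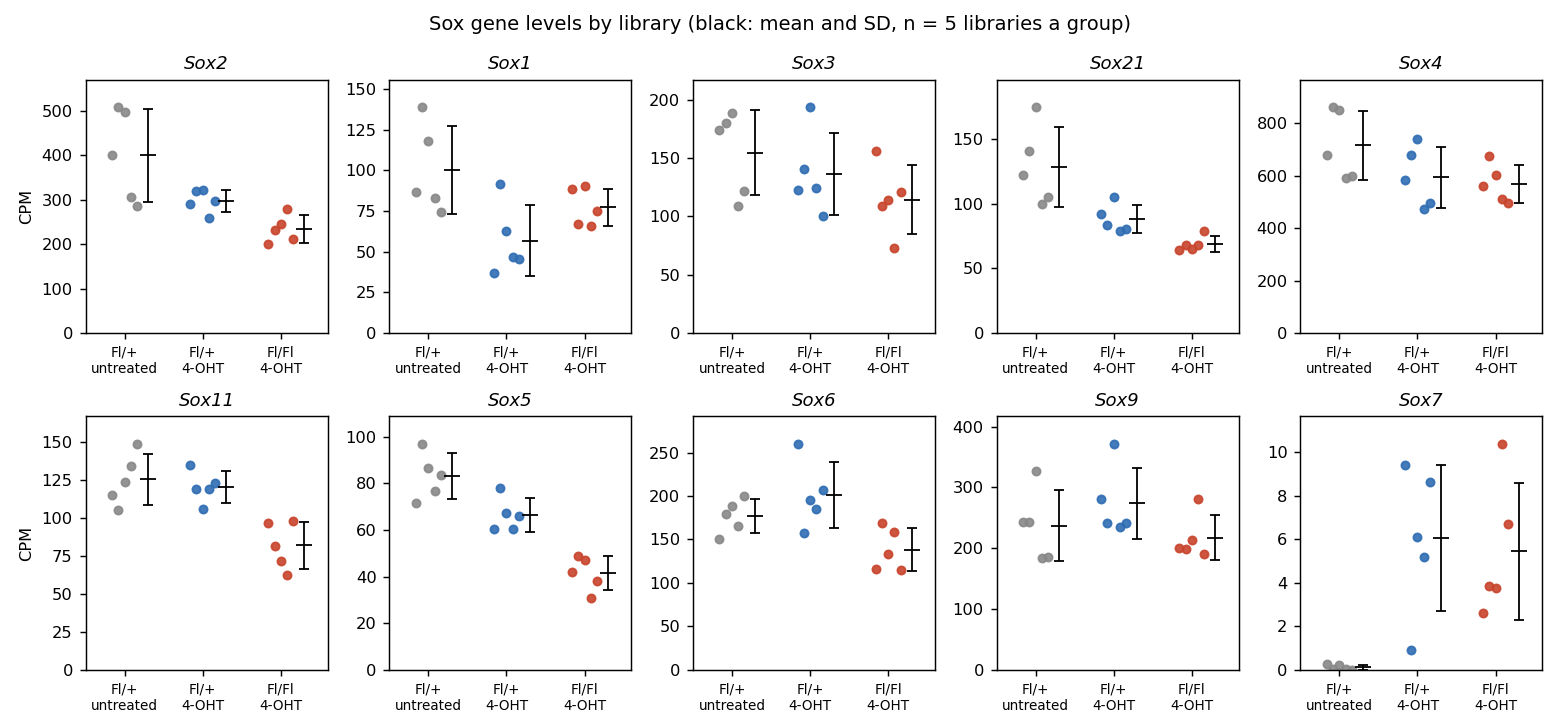
CPM in each of the 15 libraries for the 10 Sox genes, with untreated Fl/+ in grey, Fl/+ with 4-OHT in blue and Fl/Fl with 4-OHT in red. Black bars are the mean and SD over 5 libraries. Sox5 and Sox11 in Fl/Fl cells lie below all Fl/+ libraries, and Sox7 is near 0 in untreated cells.

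Sox5, the D-group gene that restrains other Sox factors in glial precursors, changed most after deletion. Its CPM in mice 27, 28, 29, 37 and 39 of the Fl/Fl group were 42.1, 48.8, 47.3, 30.9 and 38.3. In Fl/+ cells with 4-OHT (mice 19, 24, 26, 35 and 36) they were 60.4, 78.1, 67.4, 60.6 and 66.1, and in the untreated cells of those mice 71.5, 97.1, 86.6, 76.7 and 83.4. Every Fl/Fl library lay below every Fl/+ library of either kind, and each mouse was lower with 4-OHT than without. The log2 fold change after deletion was -0.66 (SE 0.126, 95% interval -0.94 to -0.39, adjusted p = 0.00294; exact two-sided permutation p = 0.00794, the smallest the design can give). After 4-OHT in Fl/+ cells it was -0.32 (SE 0.102, adjusted p = 0.0605), and with the mouse block -0.32 (SE 0.0629, adjusted p = 0.00865). After deletion, the calls of Sox5, Sox11 and Sox6 held in all 19 alternative fits, those without the library Fl/Fl 39 included, and that of Sox21 in 18, the fit of all 15 libraries being the exception (adjusted p = 0.065). Its exons share bases with the opposite-strand gene Sox5os1, which had 0 counts in each library.

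Sox6, the second D-group gene, fell after deletion and was not called with 4-OHT. The Fl/Fl libraries held 116, 169, 133, 158 and 115 CPM and the Fl/+ libraries with 4-OHT 260.3, 157, 195, 185 and 207 CPM. The untreated libraries held 151, 179.7, 188, 166 and 200.1 CPM, so the groups overlapped, and the Fl/+ library 19 with 4-OHT was the highest of all 15. Deletion gave a log2 fold change of -0.53 (SE 0.145, adjusted p = 0.0183). It was 0.18 (95% interval -0.10 to 0.47, adjusted p = 0.378) after 4-OHT. Fl/Fl with 4-OHT against untreated cells gave -0.35 (adjusted p = 0.0567), short of the threshold.

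Of the C-group genes, which are switched on as progenitors become neurons, Sox11 fell after deletion and Sox4 did not pass the test. Sox11 stood at 96.4, 81.2, 71.7, 62.5 and 97.7 CPM in Fl/Fl cells, at 135, 119, 106, 119 and 123 CPM in Fl/+ cells with 4-OHT and at 115, 105, 124, 134 and 149 CPM untreated. Every Fl/Fl library was below every Fl/+ library, whereas the Fl/+ groups overlapped throughout. Its log2 fold change was -0.54 after deletion (SE 0.122, adjusted p = 0.00689) and -0.05 after 4-OHT (95% interval -0.28 to 0.17, adjusted p = 0.769). Sox4 stood at 569 ± 73.2 CPM in Fl/Fl cells and 594 ± 115 CPM in Fl/+ cells with 4-OHT, a log2 fold change of -0.05 (95% interval -0.36 to 0.26, adjusted p = 0.827). Untreated cells held 716 ± 132 CPM of Sox4, and each of the 5 mice was lower with 4-OHT, by 0.20 to 0.34 on the log2 scale. It was called with the mouse block (log2 fold change -0.27, SE 0.0736, adjusted p = 0.0294) and with labelled sex as a covariate (adjusted p = 0.0449), but not without either (adjusted p = 0.29). The difference between the responses of Sox11 and Sox4 was not tested. Of 7 neuron markers tested after deletion, 2 were lower, 0 were higher and 5 did not pass (1 lower without the library Fl/Fl 39). Over all genes, 31.7% were called in either direction and 15.0% lower. The call of Tubb3 (log2 fold change -1.04, adjusted p = 0.0334) was lost when any of 8 single libraries was left out (0.0537 to 0.0806). That of Dcx held without any of the 10. The summed level of the neuron markers ran from 653 to 855 CPM in Fl/Fl cells against 891 to 1106 in Fl/+ cells with 4-OHT. Most of this sum was Map2, which was not called (684 against 798 CPM, adjusted p = 0.192). Dcx, a microtubule protein of young neurons, stood at 7.74 ± 2.86 against 44.5 ± 23.3 CPM. The part of neuron markers in the Sox11 result was not tested.

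Among the B1 genes, Sox2 fell and Sox1 and Sox3 did not pass the test after deletion. Sox2 held 200.1, 231, 246, 280.2 and 211 CPM in Fl/Fl cells and 291, 319, 321, 258 and 297 CPM in Fl/+ cells with 4-OHT. Only the Fl/Fl library 37 and the Fl/+ library 35 crossed. Untreated Fl/+ cells of mice 24 and 26 held 509 and 498 CPM, that of mouse 19 held 400.0 and those of mice 35 and 36 held 307 and 285. Deletion changed Sox2 by -0.33 on the log2 scale (SE 0.1, adjusted p = 0.0268; exact permutation p = 0.0159). It missed the threshold without Fl/+ library 24 (adjusted p = 0.0531), Fl/Fl library 27 (0.063), Fl/Fl library 28 (0.0551) or Fl/Fl library 39 (0.0612), and in the fit of all 15 libraries (0.105). After 4-OHT it was -0.42 (SE 0.163, adjusted p = 0.108), and -0.39 with the mouse block (SE 0.115, adjusted p = 0.0382), with 4 of 5 mice lower. Across both steps, Fl/Fl cells with 4-OHT lay wholly below untreated Fl/+ cells (log2 fold change -0.76, SE 0.174, adjusted p = 0.00734). Of 8 neural stem cell markers, 3 were lower after deletion and 0 were higher, with and without the library Fl/Fl 39, against 31.7% of all genes called in either direction and 15.0% called lower. Besides Hes5, given with the targets of B1 factors, these were Prom1, a membrane protein of stem cells, at 17 against 27 CPM (log2 fold change -0.65, SE 0.149, adjusted p = 0.00709), and Fabp7, a lipid-binding protein of radial glia, at 1905 against 2934 CPM (-0.61, SE 0.131, adjusted p = 0.00552). Prom1 stood at 15 CPM in untreated cells, and Fl/Fl against untreated cells gave 0.18 (adjusted p = 0.77). With 4-OHT 1 of the 8 was higher and 1 lower, against 13.8% of all genes, and with the mouse block 2 were higher and 1 lower, against 25.7%, Prom1 being added (1.08, SE 0.278, adjusted p = 0.0238, higher in 5 of 5 mice). The marker higher in both fits was Vim (log2 fold change 0.49, adjusted p = 0.0235, and 0.0069 with the block). Without the block its call was lost when any of 5 single libraries was left out (0.0528 to 0.0594). The part of stem cell markers in the Sox2 and Sox21 results was not tested.

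Sox1 was the only member with a positive estimate after deletion. It stood at 88.3, 67, 90.1, 66 and 75 CPM in Fl/Fl cells, at 36.8, 91.9, 62.7, 46.9 and 45.7 CPM in Fl/+ cells with 4-OHT and at 86.9, 139, 118, 82.8 and 74.5 CPM untreated. The treated Fl/+ library of mouse 24 was the highest of the treated groups, and the other 4 Fl/+ libraries were below all 5 Fl/Fl libraries. The log2 fold change was 0.46 (95% interval -0.03 to 0.94, adjusted p = 0.135). It was 0.69 without the library of mouse 24 (SE 0.16, adjusted p = 0.0106) and 0.32 without the treated Fl/+ library 19 (adjusted p = 0.28). Of the 19 alternative fits, only the 1 without mouse 24 called Sox1. With 4-OHT each of the 5 mice was lower, by 0.59 to 1.23 on the log2 scale, with a log2 fold change of -0.82 (SE 0.25, adjusted p = 0.0518) and of -0.85 with the mouse block (SE 0.0979, adjusted p = 0.000871). Sox1ot, the noncoding gene that spans Sox1 on its strand (chr8:12385771-12436768), was higher after deletion and lower with 4-OHT. It stood at 26.2, 17.3, 27.3, 15.9 and 24.3 CPM in Fl/Fl cells against 5.81, 10.5, 5.96, 5.34 and 5.85 CPM in Fl/+ cells with 4-OHT, with no overlap (log2 fold change 1.74, SE 0.227, adjusted p = 0.000375; without the library Fl/Fl 39, 1.70, SE 0.244, adjusted p = 0.00131). It was lower with 4-OHT in each mouse (log2 fold change -0.82, SE 0.204, adjusted p = 0.0226), a call lost without the treated library 19, 35 or 36 (0.0565 to 0.063) and kept with the mouse block without mouse 36 (-0.90, SE 0.161, adjusted p = 0.00735). The difference between the responses of Sox1ot and Sox1 was not tested. Sox2ot averaged 52.3 ± 11.4 CPM after deletion, beside 54.7 ± 14.1 in the treated Fl/+ group (log2 fold change -0.05, 95% interval -0.49 to 0.39).

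**Figure D3:**
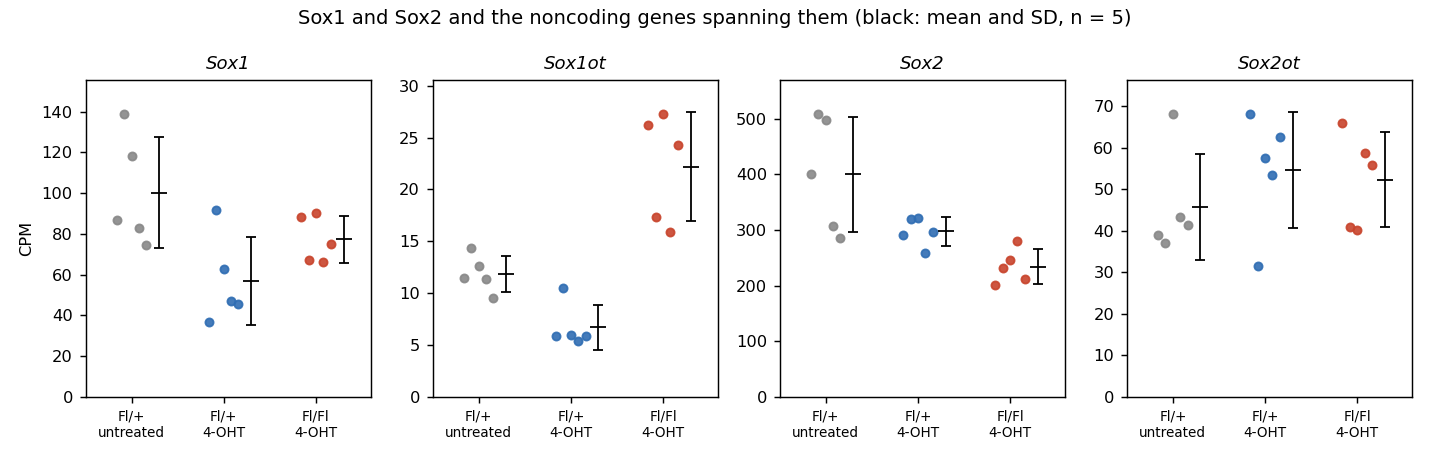
CPM in each library for Sox1, Sox2 and the noncoding genes Sox1ot and Sox2ot, in the 3 groups, with the mean and SD of 5 libraries in black. Sox1ot in Fl/Fl cells lies between 15.9 and 27.3 CPM, above all Fl/+ libraries, while the Fl/Fl libraries of Sox2ot lie among the others.

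Sox3, the X-linked B1 gene, stood at 155 ± 36.6 CPM untreated, 136 ± 35.4 CPM with 4-OHT and 115 ± 29.8 CPM in Fl/Fl cells. Its log2 fold change was -0.24 (95% interval -0.69 to 0.22, adjusted p = 0.415) after deletion and -0.18 (95% interval -0.61 to 0.25, adjusted p = 0.583) after 4-OHT. The groups overlapped broadly, and both intervals include falls as large as those of Sox2.

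Sox21, which represses the progenitor programme of the B1 factors, was called lower in both comparisons, the single such member without the block. It stood at 64.1, 68, 64.9, 68 and 79.1 CPM in Fl/Fl cells, at 92.2, 83.6, 105, 78.7 and 80.4 CPM in Fl/+ cells with 4-OHT and at 122, 141, 175, 99.5 and 105 CPM untreated. The levels stepped down from group to group, and the Fl/Fl library 39 alone overlapped with the treated Fl/+ libraries. Its log2 fold change was -0.34 after deletion (SE 0.0936, adjusted p = 0.0173) and -0.54 after 4-OHT (SE 0.152, adjusted p = 0.0376; with the mouse block -0.52, SE 0.0869, adjusted p = 0.00413), lower in 5 of 5 mice. The 2 comparisons share the Fl/+ libraries with 4-OHT. Without the block the 4-OHT call was lost when any of 7 single libraries was left out: the untreated libraries 19, 24 and 26 (adjusted p = 0.0619, 0.0696 and 0.0678) and the treated libraries 19, 24, 35 and 36 (0.0747, 0.0839, 0.0935 and 0.0851).

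Sox9, the E-group factor that drives the switch to glia, had no call in these comparisons. It stood at 217 ± 36.8 CPM in Fl/Fl cells, 274 ± 57.7 CPM in Fl/+ cells with 4-OHT and 237 ± 58.1 CPM untreated. The log2 fold change was -0.32 after deletion (95% interval -0.65 to 0.00, adjusted p = 0.12). Fl/Fl library 37 held 281 CPM against 191 to 214 in the other 4, and without it the value was -0.44 (SE 0.137, adjusted p = 0.0334). After 4-OHT it was 0.21 (SE 0.178, adjusted p = 0.465), with 4 of 5 mice higher.

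Sox7, the F-group gene of endothelium, rose from near the detection limit with 4-OHT. Its counts in untreated mice 19, 24, 26, 35 and 36 were 7, 1, 6, 1 and 0, and in the same mice with 4-OHT 279, 29, 155, 150 and 245. The Fl/Fl libraries held 84, 113, 114, 269 and 193. All 10 libraries with 4-OHT exceeded all 5 without, and mouse 24 showed the weakest rise. In CPM the means were 0.107 ± 0.115 untreated, 6.06 ± 3.36 with 4-OHT and 5.46 ± 3.15 in Fl/Fl cells. The log2 fold change with 4-OHT was 5.75 (SE 0.774, 95% interval 4.05 to 7.45, adjusted p = 0.00128). Each untreated count was below 10, so Sox7 entered this test only because it was high with 4-OHT; with at least 10 counts required in every library it is not tested, and its call adds no support beyond the counts themselves. The summed counts of 858 and 15 gave a ratio of 55 after scaling (exact 95% interval 33.1 to 98.6, counting error only). In 3 of the 5 untreated libraries the count was at or below 3, which corresponds to 0.105 to 0.115 CPM in the untreated libraries. Between Fl/Fl and Fl/+ cells with 4-OHT the log2 fold change was -0.14 (95% interval -1.28 to 1.00, adjusted p = 0.862), an interval that includes a 2-fold change in either direction.

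Of 10 endothelial markers, 3 were tested with 4-OHT; 0 were called by edgeR or DESeq2, with 0 at an unadjusted p below 0.05, and with the mouse block 1 was called, Egfl7 (4.81 against 2.76 CPM, log2 fold change 0.94, SE 0.242, adjusted p = 0.0239), against 25.7% of all genes. Without both cultures of mouse 36 the block called 0 of 2 tested, with Egfl7 at an adjusted p of 0.0544. The summed level of the list was 7.36 to 11.6 CPM untreated and 8.71 to 14.1 CPM with 4-OHT in Fl/+ cells, and 11.3 to 16.2 CPM in Fl/Fl cells. After deletion 1 of 3 tested was higher, near the 31.7% of all genes called: Erg, an endothelial transcription factor, at 1.2 against 0.396 CPM (log2 fold change 1.61, SE 0.37, adjusted p = 0.00745), and it was higher against untreated cells as well (1.97, adjusted p = 0.00717). Cldn5, Cdh5 and Tie1 had at most 3 counts in each library, and the other F-group genes were near 0, with Sox17 at 0 in all libraries and Sox18 at most 0.443 CPM. Of 11 oligodendrocyte lineage markers, 5 were higher with 4-OHT, 0 were lower and 6 did not pass, against 13.8% of all genes called. With the mouse block 5 were higher and 1 was lower, against 25.7%, and without both cultures of mouse 36 5 and 0, against 24%. Their summed level was 3492 to 4543 CPM untreated, 3344 to 4633 CPM with 4-OHT in Fl/+ cells and 3589 to 5391 CPM in Fl/Fl cells. Mag, a myelin protein, stood at 11.2 ± 8.53 against 1.01 ± 1.09 CPM. Mog, among the higher genes in each of these counts, had at most 2 counts in an untreated library and at most 57 in a treated Fl/+ library. It passed the filter only through the libraries given 4-OHT, so its call adds no support to the counts of higher markers. Of 8 astrocyte markers, 1 was higher with 4-OHT, 3 were lower and 4 did not pass, against 13.8% of all genes called (2 higher and 4 lower with the mouse block, against 25.7%; 0 higher and 4 lower, against 24%, without both cultures of mouse 36), with a median log2 fold change of -0.13. Gfap, the intermediate filament of astrocytes, was higher (548 against 57.7 CPM, log2 fold change 3.25, SE 0.851, adjusted p = 0.0283), and S100b, a calcium-binding protein, Slc1a3, a glutamate transporter, and Gja1, a gap junction protein, were lower (log2 fold change -1.91, -0.70 and -0.58). The Gfap call was lost with the block without mouse 36 (adjusted p = 0.0522) and when any of 5 single libraries was left out, the untreated 24 or 35 or the treated 19, 35 or 36 (0.0502 to 0.0619). That of Gja1 was lost without any of 6, the untreated 26 or 35 or the treated 19, 24, 26 or 35 (0.0564 to 0.0844), and that of S100b without the treated library 19 (0.0526). The part of endothelial, oligodendrocyte and astrocyte markers in the Sox7 result was not tested.

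**Figure D4:**
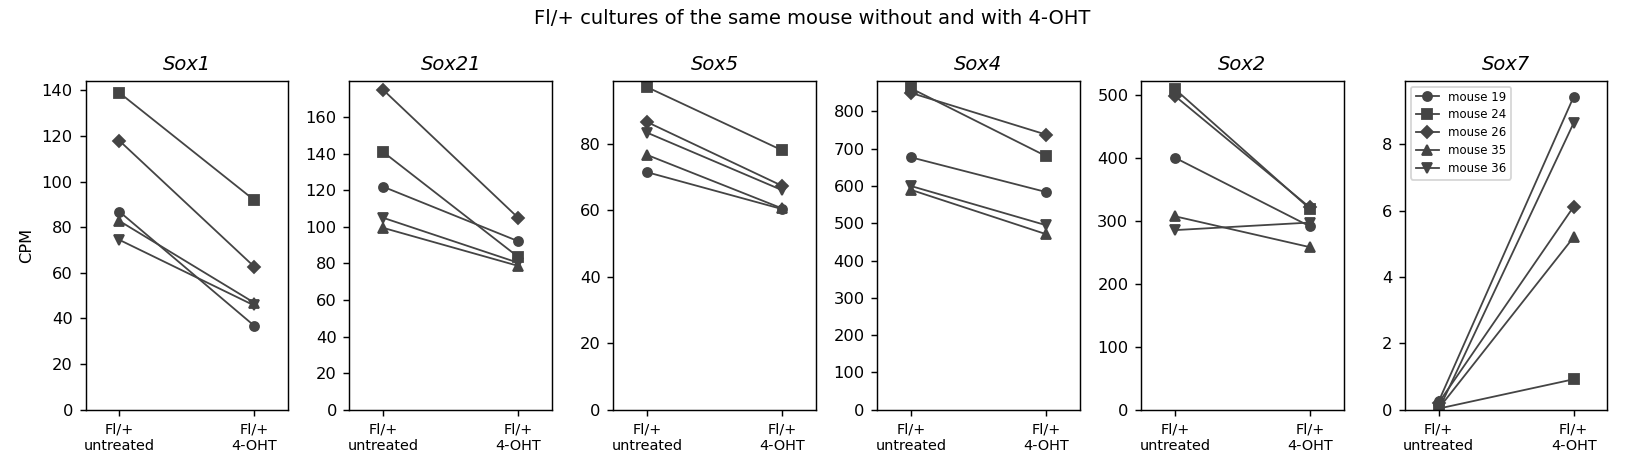
CPM of 6 Sox genes in the Fl/+ cultures of each mouse, untreated and with 4-OHT, with each line joining the 2 cultures of 1 mouse. Sox1, Sox21, Sox5 and Sox4 are lower with 4-OHT in 5 of 5 mice, Sox2 in 4 of 5, and Sox7 is higher in 5 of 5, least in mouse 24.

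**Figure D5:**
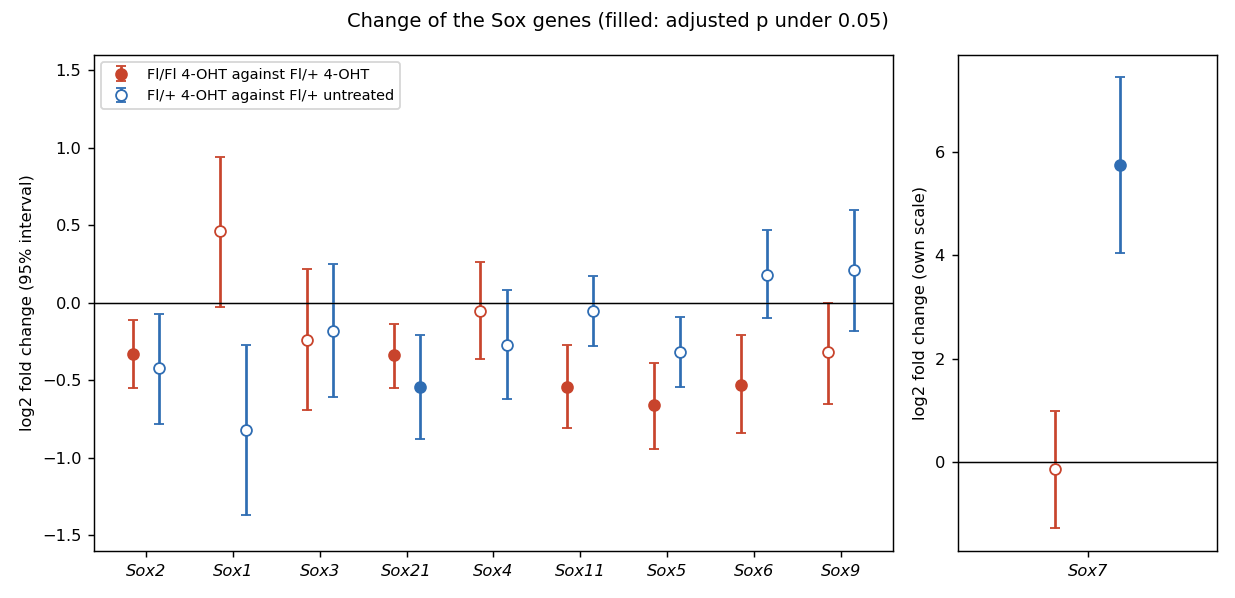
log2 fold changes with 95% intervals for deletion in red and 4-OHT in blue, with filled points where the edgeR adjusted p, without the mouse block, was below 0.05. Sox7 has its own scale. After deletion 9 of 10 estimates are below 0, Sox1 being the exception.

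Fl/Fl cells with 4-OHT against untreated Fl/+ cells combine deletion and drug, and share libraries with both comparisons above. In this contrast 5 of the 10 members were called, against 30.7% of 15032 tested genes, and the groups did not overlap for these 5 (23.1% of all genes). With Sox7 left aside, which passed the filter only through the libraries given 4-OHT, both counts are 4 of 9. Sox5 (log2 fold change -0.99, SE 0.131, adjusted p = 0.000418), Sox21 (-0.89, SE 0.148, adjusted p = 0.0014), Sox2 and Sox11 (-0.60, SE 0.138, adjusted p = 0.00757) were lower, and Sox7 was higher (5.61, SE 0.669, adjusted p = 0.000237). Sox4 and Sox1 stood at -0.32 and -0.36 and did not pass (adjusted p = 0.102 and 0.139).

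Within the untreated group, the cultures of mice 35 and 36 had the lowest levels of Sox1, Sox2, Sox3, Sox21, Sox4 and Sox9. Sox2 in these 2 was 307 and 285 CPM against 400.0 to 509 in the other 3, and Sox3 was 109 and 122 against 174 to 189. Sox11 was highest in them, at 134 and 149 CPM. The labels name no batch. With the series of mouse numbers (19 to 29 against 35 to 39) as a covariate, chosen after seeing these levels, 5 of 10 members were called with 4-OHT, Sox1, Sox2 and Sox5 being added, against 21.4% of all genes, and 5 after deletion, against 36.3%.

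The promoters of 4 of the genes that fell after deletion are shown for the sequence at which their transcripts start. Binding data were not analysed here. The windows are the 250 bases before the transcript start in RefSeq (GRCm38.p6), read on the gene's strand, 5′ to 3′, with capitals marking GC boxes, the core site of Sp1-type factors (GGGCGG, or CCGCCC on the other strand). They lie at chr3:34649745-34649994 for Sox2, chr14:118237031-118237280 for Sox21, chr12:27342719-27342968 for Sox11 and chr6:143947107-143947356 for Sox5, and hold 0 bases of GENCODE exon of the members. The Sox5 window, the 1 that the RefSeq table holds, lies inside the GENCODE Sox5 gene and belongs to a transcript that starts far downstream of the gene's 5′ end.
Sox2: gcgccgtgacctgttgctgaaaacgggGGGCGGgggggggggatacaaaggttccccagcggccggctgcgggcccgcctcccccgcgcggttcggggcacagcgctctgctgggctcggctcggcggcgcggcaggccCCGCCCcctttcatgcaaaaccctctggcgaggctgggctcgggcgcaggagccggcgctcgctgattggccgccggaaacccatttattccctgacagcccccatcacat
Sox21: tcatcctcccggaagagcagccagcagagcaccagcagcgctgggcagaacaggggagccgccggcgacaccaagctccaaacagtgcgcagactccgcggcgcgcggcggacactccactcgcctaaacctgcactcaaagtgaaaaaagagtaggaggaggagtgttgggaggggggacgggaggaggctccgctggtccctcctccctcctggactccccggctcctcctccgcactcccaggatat
Sox11: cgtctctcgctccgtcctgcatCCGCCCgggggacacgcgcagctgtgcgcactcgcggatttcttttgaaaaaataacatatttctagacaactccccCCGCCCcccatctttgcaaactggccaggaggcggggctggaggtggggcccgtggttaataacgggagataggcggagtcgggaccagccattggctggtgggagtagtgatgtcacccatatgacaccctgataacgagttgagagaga
Sox5: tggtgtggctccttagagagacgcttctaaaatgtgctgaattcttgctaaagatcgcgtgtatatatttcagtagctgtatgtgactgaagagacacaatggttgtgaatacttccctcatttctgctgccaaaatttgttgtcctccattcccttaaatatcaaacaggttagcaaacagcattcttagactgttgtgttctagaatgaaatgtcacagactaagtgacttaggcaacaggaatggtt
Sox2 and Sox11 hold 2 GC boxes each, and Sox21 and Sox5 hold 0. Of 32851 such windows in the genome, 32.7% hold at least 1, so the split among these 4 is a description of the letters only. Sox6, the remaining gene that fell, has 6 windows, of which 1 holds 4 GC boxes and the others 0. The windows of Sox2 and Sox5 each hold 1 match to ACAAAG or ACAATG on either strand, the core bound by Sox proteins, which 25.2% of all windows hold. No window was matched for Sox3, Sox7 and Sox9.

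Genes that act with the members were read from lists of partners and targets. Of 7 partner factors of the B1 proteins, 4 were lower and 0 higher after deletion, against 31.7% of all genes called and 15.0% called lower. They were led by Chd7, a chromatin remodeller that binds Sox2 (113 ± 12.6 against 180 ± 12.4 CPM, log2 fold change -0.66, adjusted p = 0.00042), and Pou3f2, a POU factor that pairs with Sox2 (38.2 ± 2.93 against 52.6 ± 3.4 CPM, log2 fold change -0.45, adjusted p = 0.00158). The list's median was -0.35, beside 0.02 over all genes. With 4-OHT, 1 of the 7 was lower, near the 13.8% of all genes called: Pax6, the eye and forebrain factor, at 38.2 ± 5.6 against 55.9 ± 8.3 CPM (log2 fold change -0.55, adjusted p = 0.0182; 0.0504 and 0.0527 without the treated library 19 or 35).

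Of 8 targets of B1 factors in neural cells, 3 were lower and 0 higher after deletion. Over all genes, 31.7% were called in either direction and 15.0% were called lower. Hes5, a Notch effector, decreased from 20.1 ± 6.82 to 9.89 ± 3.21 CPM (it fell by 1.00 on the log2 scale, adjusted p = 0.0176), and Notch1, the receptor, from 365 ± 20.5 to 238 ± 32.1 CPM (log2 fold change -0.60, adjusted p = 0.001). With 4-OHT, 2 rose and 1 fell, against 13.8% of all genes, and with the mouse block 2 rose and 2 fell, against 25.7%, Nr2e1, a nuclear receptor of neural stem cells, being added (-0.26, SE 0.067, adjusted p = 0.0231). Notch1 was among the higher genes, at 365 against 279 CPM (a log2 difference of 0.39, SE 0.0815, adjusted p = 0.0104), and between Fl/Fl and untreated cells it was not called (-0.21, adjusted p = 0.148). Hes5 went from 73.5 ± 31.3 to 20.1 ± 6.82 CPM (log2 fold change -1.87, adjusted p = 0.00517), and Socs3, an inhibitor of cytokine signalling, rose from 6.25 ± 2.42 to 22.5 ± 8.69 CPM (log2 fold change 1.85, adjusted p = 0.00548). The same shares of all genes, 31.7% after deletion, 13.8% with 4-OHT and 25.7% with the mouse block, stand beside the counts of the lists that follow. Of 7 proneural factors, 4 were tested, and after deletion 1 was lower, Insm1 (log2 fold change -0.83, adjusted p = 0.0183). Of 6 partners and targets of Sox9 in glia, 1 was lower after deletion, Apcdd1 (log2 fold change -0.72, adjusted p = 0.0388). This call was lost without any of 7 single libraries, Fl/Fl 27, 28, 29 and 39 and the treated Fl/+ 19, 35 and 36 (adjusted p = 0.0532 without Fl/Fl 39, and 0.0532 to 0.0929 over the 7). With 4-OHT 0 were called by edgeR or DESeq2 (1 at an unadjusted p below 0.05) and 1 with the mouse block, Nfia (log2 fold change -0.25, SE 0.0707, adjusted p = 0.0349). Of 8 Wnt target genes, 6 were tested. After deletion Tcf7, a transcription factor of the pathway, was higher (log2 fold change 1.08, adjusted p = 0.00115), and with 4-OHT Rnf43 and Znrf3, which remove Wnt receptors, were lower (-1.29 and -0.34, adjusted p = 0.0473 and 0.0407). With the mouse block 3 Wnt target genes were lower, Nkd1, an inhibitor of the pathway, being added (-0.53, SE 0.121, adjusted p = 0.0152). Without both cultures of mouse 36 the block called 2, Znrf3 being lost (adjusted p = 0.0537). Without the block, Rnf43 was lost without any single library except the untreated 36 and the treated 26 (0.0516 to 0.11), and Znrf3 without any except the untreated 19, 26 and 35 (0.0617 to 0.122).

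Of 9 other Sox genes, 4 were tested: Sox8, Sox10, Sox12 and Sox13. Sox12, the third C-group gene, was lower after deletion (81.3 ± 8.8 against 108 ± 16.4 CPM, log2 fold change -0.40, adjusted p = 0.0216). Sox10, the oligodendrocyte factor, was higher with 4-OHT (96.4 ± 20.8 against 25.1 ± 19.2 CPM, log2 fold change 1.94, adjusted p = 0.0163). With the mouse block, Sox8 and Sox13 were called lower as well (-0.71 and -0.40, adjusted p = 0.00242 and 0.0111).

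The genes most like Sox5 over the 15 libraries, by Pearson's r of log2(CPM + 0.5) among 13332 other genes averaging at least 1 CPM, were Cxxc4 (r = 0.969), Foxn2 (0.964) and Map4k4 (0.964). Like Sox5 they stepped down over the groups; Cxxc4 averaged 26.8, 18.4 and 10.7 CPM in untreated, Fl/+ 4-OHT and Fl/Fl cells. Those most like Sox7 were Cyp2d22 (0.964), Bdkrb2 (0.962) and Syt6 (0.955), and Bdkrb2, a bradykinin receptor, averaged 0.393, 7.73 and 10.1 CPM. The 15 points share mice and group differences, so the values are descriptions.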

How the data were processed

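RNA was sequenced as single-end reads from a stranded mRNA library kit in 15 libraries, 5 in each of 3 groups taken from the labels. Per the labels and the study's methods, the authors made reads with bcl2fastq 1.8.4, aligned them with STAR 2.5.4b to GRCm38 (Ensembl 92) and deposited raw counts of unique reads per gene from featureCounts 1.5.0 in stranded mode. Of 53801 gene IDs, 53706 matched GENCODE M21 and 95 did not. Here, genes were filtered with filterByExpr (minimum count 10), scaled by TMM and tested with edgeR 4.0.16 (R 4.3.3) quasi-likelihood F tests on the 10 libraries of each comparison, without covariates, at a Benjamini-Hochberg adjusted p below 0.05 over all genes tested. Standard errors are the fold change over the square root of F, and 95% intervals use the t distribution. Exact two-sided permutation tests used log2(CPM + 0.5) over all arrangements (smallest p 0.00794) or sign changes over mice (smallest p 0.0625). The fit was tested on simulated data.

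The labels pair Fl/+ cultures by mouse. Over 15435 genes, the deviations of same-mouse cultures correlated at 0.156 to 0.626 and those of other pairs at -0.549 to 0.339, so the mouse block was an alternative fit with its own values. Other alternatives were DESeq2 1.42.0, its size factors, library size alone, other filters, all 15 libraries in 1 fit, labelled sex as a covariate, leaving out single libraries and, added after seeing the data, the mouse-number series as a covariate, sex as a covariate without library Fl/Fl 39 and the mouse block without mouse 36. The 4-OHT dose is given differently in the sources and is not printed. The named genes are the 10 members, the 2 largest called changes in each list, and the 3 genes most like the member with the largest change in each comparison. Sox1ot and Sox2ot overlap members. 1 result that this rule names is not reported here. The members and lists were chosen with earlier results of these data known.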

Additional observations from a re-analysis of the deposited data

Results flagged for a closer look

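2 of 30 groups of 5 libraries, 10 genes in 3 groups, had a library that stood far from the other 4 (a gap to its nearest neighbour as a share of the group's range above Dixon's critical value); chance flags about 1 in 20. Sox21 in the Fl/Fl library 39 stood at 79.1 CPM, against 64.1 to 68 in the others. Sox9 in the Fl/Fl library 37 stood at 281 CPM, against 191 to 214 in the others.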

How the results depend on the processing

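With Trrap deletion 5 of the 10 Sox genes were called, and 3 when all 15 libraries entered 1 fit, where Sox2 and Sox21 were lost; the other settings gave up to 5 and leaving out 1 library gave 4 to 6. With 4-OHT 2 were called. DESeq2 gave 4 (adding Sox1 and Sox5), library size alone 1 and a minimum of 10 counts in every library 1, since Sox7 is then not tested and has no value. Sex as a covariate gave 6 (against 19.8% of all genes called), the mouse-number series 5 (21.4%), the mouse as replicate block 6 (25.7%) and the block without both cultures of mouse 36 gave 5 (24%), beside 13.8% with neither covariate nor block, and leaving out 1 library gave 1 to 4, with the untreated libraries 24 and 26 and the treated libraries 19, 35 and 36 giving 1 and the untreated library 36 giving 4. Among the members the block added Sox1, Sox2, Sox4 and Sox5 and removed none. Fl/Fl cells with 4-OHT against untreated Fl/+ cells gave 5, and 4 to 6 under the other settings. The causes were not tested.

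Signs turned only for genes without a call. After deletion Sox4 was at 0.04 with sex as a covariate and without Fl/Fl 39, and ran from -0.14 to 0.03 with 1 library left out, while Sox7 ran from -0.52 to 0.07. After 4-OHT Sox11 was at 0.00 with library size alone and with the block without mouse 36, and ran from -0.11 to 0.01. In the combined contrast Sox9 was at 0.01 with sex as a covariate and without Fl/Fl 39, and ran from -0.22 to 0.03. Over all genes, library size alone turned the 4-OHT calls from 1088 higher and 956 lower to 1396 and 712, and those of the combined contrast from 2357 and 2263 to 3150 and 1603. Sox7 in untreated cells rests on 15 counts, and no separate untreated Fl/Fl library bears on the deletion contrast.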

Other observations

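The treated Fl/+ culture of mouse 24 stood apart from the other 4 treated Fl/+ cultures in several genes, a pattern singled out after the values were seen. It held the lowest Sox7 level (0.918 CPM, against 5.2 to 9.43), the highest Sox1 level (91.9 CPM, against 36.8 to 62.7), the highest Sox1ot level (10.5 CPM, against 5.34 to 5.96) and the highest Sox5 level (78.1 CPM, against 60.4 to 67.4). Its Trrap level was 204 CPM, against 138 to 171 in the other 4. The untreated culture of mouse 24 was likewise the highest of its group for Trrap (214 CPM), Sox1 (139 CPM), Sox1ot (14.3 CPM) and Sox5 (97.1 CPM). No test was made of this pattern.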
